A study of Sus scrofa with 40 samples.

Results

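FUT2 and 4 other genes that build sugar antigens on cell surfaces (FUT1, FUT8, GGTA1 and CMAH) were followed through warm ischemia and cold storage of the pig kidney. These 5 genes, of 7520 with a symbol on the array, were represented by 11 of its 43603 probes. A probe was taken where the array files name a member as its gene or give the symbol in brackets in its description, and probes of a gene were kept apart. FUT2 was chosen by its signal, because it parted all cold-stored arrays from all others, so its cold-storage values are given as a description without a test.

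Cortex (C) and corticomedullary junction (CMJ) of 15 kidneys from 3-month-old Large White pigs were measured on 40 one-colour arrays, with 5 arrays in each of 8 groups. Control kidneys (Ctl-C, Ctl-CMJ) were removed and sampled immediately. Kidneys of the WI groups were kept clamped for 60 min at 37 °C before sampling. Cold-stored kidneys (groups WI+CS6h and WI+CS24h) went through the same warm ischemia, a flush with cold University of Wisconsin solution and storage at 4 °C, and the same 5 kidneys gave the samples at 6 h and at 24 h. The pigs were brothers of 1 breed, every cold-stored kidney had warm ischemia first, and no kidney was reperfused, so cold storage alone and reperfusion were not measured. Whether the C and CMJ samples of a number came from 1 kidney is not stated for the arrays.

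Surface sugars are built step by step by glycosyltransferases in the Golgi. FUT1 and FUT2 are alpha-1,2-fucosyltransferases that finish the H antigen, the precursor of the A and B blood group sugars. FUT2 is the secretor enzyme of mucosal and glandular epithelia. FUT8 adds the core fucose of N-glycans. GGTA1 makes the alpha-Gal epitope and CMAH makes the sialic acid Neu5Gc, the sugars that human antibodies recognise on pig organs.

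The 3 FUT2 probes have the identifier NM_214069 in the files, which give start positions of 454, 1248 and 1957 for them. They are shown because they behaved differently in kidneys without cold storage, as the values below show. Each probe has 60 bases, and for the probes at 1248 and 1957 only the first 30 are printed.
FUT2 probe at 454: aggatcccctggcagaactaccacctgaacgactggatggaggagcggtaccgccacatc
FUT2 probe at 1248, first 30 bases: cagctacaagcaacaaagtcccaactaact
FUT2 probe at 1957, first 30 bases: cagttttgacaagatagccgtattggctag
G and C made up 60% of the probe at 454, 36.7% of the probe at 1248 and 45% of the probe at 1957. No transcript sequence was used here, so matches of these probes to FUT1 or other relatives were not tested.

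FUT2 signal was at background in kidneys without cold storage and clearly measured in all cold-stored kidneys by 2 of the 3 probes. Values are log2 normalized signals, and "well above background" is the scanner software's own mark for a spot. The probes at 1248 and 1957 were well above background on 0 of the 20 Ctl and WI arrays and on 20 of the 20 cold-stored arrays. The probe at 454 was well above background on all 40 arrays. All are bulk tissue samples, in which a change in the share of a cell type cannot be told apart from a change in RNA per cell.

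For the FUT2 probe at 1248, arrays 1 to 5 read 0.05, 0.06, 0.05, 0.05 and 1.38 in Ctl-C and 0.05, 0.05, 0.19, 0.05 and 0.04 in WI-C. In cold-stored cortex they read 6.17, 5.47, 7.11, 6.78 and 7.19 at 6 h and 5.98, 5.82, 6.75, 7.18 and 6.40 at 24 h. Every cold-stored cortex array lay above every cortex array without storage. In the CMJ the values were 0.05, 0.05, 0.06, 0.05 and 0.51 in Ctl-CMJ and 0.05, 0.76, 0.05, 0.04 and 0.05 in WI-CMJ. They were 5.28, 5.52, 6.54, 6.35 and 6.27 in WI+CS6h-CMJ and 5.36, 5.97, 6.58, 6.58 and 6.38 in WI+CS24h-CMJ. The lowest of the 20 cold-stored arrays was 3.90 above the highest of the 20 others on the log2 scale.

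For the FUT2 probe at 1957, arrays 1 to 5 read 0.24, 0.21, 0.31, 0.29 and 0.28 in Ctl-C and 0.34, 0.41, 0.20, 1.32 and 0.22 in WI-C. They read 5.40, 4.78, 6.57, 6.48 and 6.13 in WI+CS6h-C and 5.32, 5.31, 6.45, 6.62 and 5.54 in WI+CS24h-C. The groups did not overlap in cortex. In the CMJ the values were 0.30, 0.39, 0.30, 0.25 and 1.60 in Ctl-CMJ and 0.24, 0.82, 0.36, 0.31 and 0.21 in WI-CMJ. They were 4.54, 4.74, 6.27, 6.04 and 5.36 at 6 h and 4.77, 5.35, 6.07, 6.23 and 5.56 at 24 h. Again every cold-stored array lay above every other array, with a gap of 2.94.

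The probe at 454 read 3.60, 3.58, 3.59, 3.46 and 3.64 in Ctl-C and 3.78, 3.81, 4.16, 3.43 and 3.18 in WI-C. In cold-stored cortex it read 5.53, 4.84, 6.32, 5.89 and 6.51 at 6 h and 5.39, 5.32, 6.07, 6.45 and 5.75 at 24 h. Its signal in cortex without storage was measurable, with group means of 3.58 ± 0.07 in Ctl-C and 3.67 ± 0.38 in WI-C (SD, n = 5). In the CMJ it read 3.58, 3.27, 3.66, 4.76 and 3.57 in Ctl-CMJ and 3.67, 4.10, 4.27, 3.44 and 4.12 in WI-CMJ. It read 4.76, 5.03, 5.73, 5.81 and 5.76 in WI+CS6h-CMJ and 5.04, 5.18, 5.62, 5.83 and 5.61 in WI+CS24h-CMJ. Here the parting was narrow, since WI+CS6h-CMJ array 1, the lowest cold-stored array, exceeded Ctl-CMJ array 4, the highest other array, by 0.0023, and the next highest array without storage was at 4.27. It did not hold with scaling to the 75th percentile, where 2 cold-stored arrays were at or below that control, nor with normalization within groups or normexp background correction, with 1 each. The 8 probes of the other members all overlapped. The lowest cold-stored array minus the highest other array was least negative at GGTA1 at 3480 (-0.394). There 17 cold-stored arrays were at or below the highest other array.

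**Figure D1:**
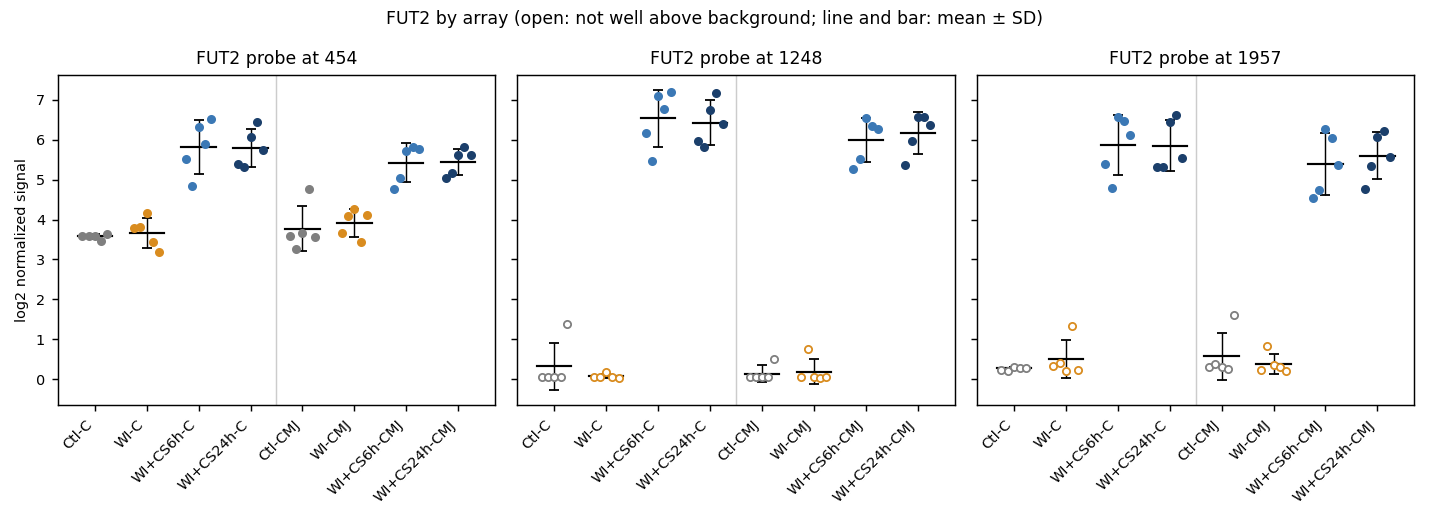
Log2 normalized signal of the 3 FUT2 probes on each of the 40 arrays (points, arrays 1 to 5 from left to right within a group) by group, with open points for spots not well above background and lines and bars for mean ± SD of 5 arrays. The probes at 1248 and 1957 stay at or below 1.60 without cold storage and lie between 4.54 and 7.19 with it, while the probe at 454 rises from a measurable level.

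Because 2 probes were at background without storage, their folds were taken against an assumed floor. Each array at background was given the level of its own dimmest spot that was well above background, which ran from 1.64 to 3.45 over the arrays, or the probe's own signal where that was higher. This floor is the level of a single spot on each array, so the folds are not strict lower bounds for FUT2. Against the floor, the signal at 1248 was 20.7-fold higher in WI+CS6h-C than in Ctl-C, where the measured means were 6.54 and 0.32. At 24 h in cortex it was 19.1-fold higher. In the CMJ it was 12.9-fold higher at 6 h (means 5.99 and 0.14) and 14.6-fold higher at 24 h. The floor folds of the probe at 1957 against Ctl were 13-fold and 12.8-fold in cortex and 8.49-fold and 9.79-fold in the CMJ. Against WI, floor folds ran from 11.8-fold to 17.1-fold at 1248 and from 7.81-fold to 10.7-fold at 1957.

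The probe at 454, measured on both sides, gave smaller folds. Against Ctl its log2 fold changes were 2.24 ± 0.27 (standard error) at 6 h and 2.22 ± 0.27 at 24 h in cortex, and 1.65 ± 0.27 and 1.69 ± 0.27 in the CMJ. On the linear scale these are folds of 4.73, 4.66, 3.14 and 3.22. Against WI the folds were 4.42, 4.35, 2.83 and 2.90 in the same order.

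The size of the FUT2 difference depended on how background was treated. The mean signal over cold-stored arrays minus that over others was 6.10, 5.25 and 1.89 for the probes at 1248, 1957 and 454, the first 2 of these against spots at background, so that they describe the arrays and measure no fold. With normexp correction and an offset of 50, which compresses dim signals, these differences were 0.80, 0.52 and 0.33. In the authors' deposited log2 matrix, made without background subtraction and with 1 value for the 3 probes, the difference was 1.63 and cold-stored arrays kept a gap of 0.89 above the others. Each of the 10 slides held 2 cold-stored and 2 other arrays, and the difference within a slide was 1.30 to 2.28 at 454, the probe measured on both sides, again as a description. The cold-stored arrays had 57.0% to 69.9% of spots well above background and the others 61.4% to 68.2%.

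In the 8 comparisons of cold storage with Ctl or WI the 3 FUT2 probes are given no test, since the same values chose FUT2. For other probes a call means a limma adjusted p under 0.05 together with a log2 change of 0.5 or more in either direction. Against Ctl, calls made up 4.45% of all probes in WI+CS6h-C, 2.90% in WI+CS24h-C, and in the CMJ 3.33% at 6 h and 3.70% at 24 h. Against WI they made up 2.44%, 1.68%, 3.28% and 3.34% in the same order. The stricter pattern of FUT2, all 20 cold-stored arrays above all 20 others, was met by 106 of 43210 probes (0.245%), and the opposite pattern by 108 (0.250%).

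Warm ischemia by itself gave no call for FUT2. WI-C minus Ctl-C was 0.10 (95% interval -0.48 to 0.67) at 454, and WI-CMJ minus Ctl-CMJ was 0.15 (-0.42 to 0.72), with adjusted p = 1 and 0.899 by limma. The other 2 probes were not well above background in these groups and give no fold. Of the 11 member probes limma called 0 after WI in either tissue, 0 of which had an unadjusted p under 0.05, against 0.0849% of all probes called in cortex and 0.787% in the CMJ.

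Between 6 h and 24 h of storage FUT2 was called by none of its probes. In cortex 24 h minus 6 h was -0.12 (95% interval -0.81 to 0.57) at 1248, -0.02 (-0.72 to 0.68) at 1957 and -0.02 (-0.60 to 0.55) at 454. In the CMJ it was 0.18 (-0.36 to 0.72), 0.21 (-0.52 to 0.93) and 0.04 (-0.53 to 0.60). Kidney by kidney, the CMJ value was higher at 24 h in 5 of 5 kidneys at 1248 (0.04 to 0.45), in 4 of 5 at 1957 (-0.20 to 0.61) and in 3 of 5 at 454 (-0.15 to 0.28), and in cortex in 2 of 5 by each probe. In a fit of the pairs alone, added after seeing the data, the standard errors at 1248, 1957 and 454 were 0.08, 0.12 and 0.08 in the CMJ (adjusted p = 0.916, 0.916 and 0.980) and 0.20, 0.17 and 0.22 in cortex. In the unpaired fit limma called 0% of all probes in cortex and 0.00229% in the CMJ between the times, with 0 of the 11 member probes at an unadjusted p under 0.05.

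FUT2 means were lower in the CMJ than in cortex at both storage times by all 3 probes, and limma called none of these differences. CMJ minus C at 6 h was -0.55 (95% interval -1.16 to 0.06), -0.48 (-1.19 to 0.22) and -0.40 (-0.96 to 0.16) at 1248, 1957 and 454, with adjusted p = 0.575, 0.640 and 0.633. At 24 h the differences were -0.25, -0.25 and -0.34, each with adjusted p = 0.996. By sample number, the CMJ was lower than cortex in 5 of 5 pairs at 1957 at 6 h (-0.87 to -0.04) and at 454 at 24 h (-0.62 to -0.14), and in 3 or 4 of 5 pairs otherwise. Same-numbered C and CMJ samples deviated together in these groups, by correlations of 0.17 to 0.501 at 6 h and 0.18 to 0.545 at 24 h. In a fit of the pairs alone, added after seeing the data, the standard errors fell to 0.16, 0.14 and 0.17 at 6 h and to 0.14, 0.12 and 0.10 at 24 h at 1248, 1957 and 454, with adjusted p = 0.571 at 6 h and 0.787 at 24 h. The order of the 4 cold-stored groups was WI+CS6h-C, WI+CS24h-C, WI+CS24h-CMJ and WI+CS6h-CMJ from high to low by every probe, and limma called no difference between neighbours in it. Between the tissues limma called 0 of the 11 member probes in any treatment, against 0.347% of all probes in Ctl, 0.863% in WI, 0.0643% in WI+CS6h and 0% in WI+CS24h. Of the 8 probes of the other members, 3 or 4 had an unadjusted p under 0.05 between the tissues in each treatment, all of GGTA1 but 1 in Ctl and 1 in WI+CS6h. Over all 43575 probes 2891, 3443, 3949 and 1686 did so in Ctl, WI, WI+CS6h and WI+CS24h.

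Cold-stored FUT2 levels were lowest in the samples numbered 1 and 2 in all 4 groups. At 1248, the 4 arrays of a number averaged 5.70, 5.70, 6.74, 6.72 and 6.56 for numbers 1 to 5. At 1957 the averages were 5.01, 5.04, 6.34, 6.34 and 5.65, and at 454 they were 5.18, 5.09, 5.93, 5.99 and 5.91. Numbers 1 and 2 were the lowest pair in all 12 orders of 3 probes by 4 groups, and numbers 3 and 4 the highest pair in 9 of them. The probes followed each other across the 20 cold-stored arrays, with r of 0.90 to 0.97. No correlation is given for the 20 others, where 2 of the probes were at background. The cold-stored arrays share kidneys between both times, so the 20 points are not independent. The order was not particular to FUT2. Numbers 1 and 2 also had the lowest averages at both FUT1 probes and at every GGTA1 probe, and not at FUT8 or CMAH.

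**Figure D2:**
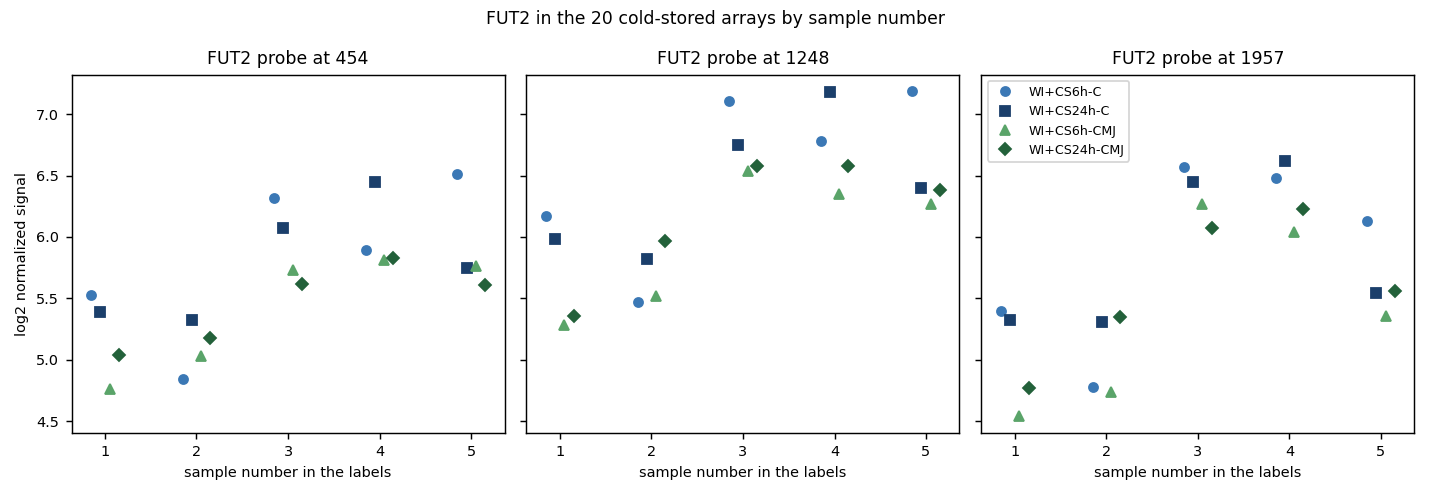
Log2 normalized signal of the 3 FUT2 probes on the 20 cold-stored arrays (y axis) by sample number (x axis), 1 symbol for each of the 4 groups. Samples 1 and 2 lie lowest in every group, with averages of 5.01 to 5.70 over the 3 probes, and samples 3 and 4 average 5.93 to 6.74.

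FUT1, the other H-antigen enzyme of the set, was not called in any comparison. Its bright probe (start 2364, well above background on all 40 arrays) read 8.23, 8.12, 8.31, 8.08 and 8.44 in Ctl-C and 7.84, 8.07, 8.11, 8.44 and 8.41 in WI+CS6h-C. At 24 h in cortex it read 8.18, 7.99, 8.48, 8.26 and 8.31. These values overlap, and the log2 fold changes against Ctl-C were -0.06 (95% interval -0.30 to 0.18, adjusted p = 0.784) and 0.01 (-0.23 to 0.25, adjusted p = 1). In the CMJ the means were 8.61 ± 0.27 in Ctl, 8.33 ± 0.09 in WI, 8.41 ± 0.28 at 6 h and 8.51 ± 0.38 at 24 h (SD, n = 5). By this probe mean FUT1 was 0.24 to 0.37 higher in the CMJ than in cortex in all 4 treatments and higher in 5 of 5 same-numbered samples of each cold-stored group, without a call (adjusted p = 0.488 in Ctl). Its dim probe (start 1249) was well above background on 24 of the 40 arrays, with group means from 2.26 to 3.08, and CMJ minus C was 0.38, 0.03, -0.10 and 0.30 in Ctl, WI, WI+CS6h and WI+CS24h. It was 0.80 higher in WI+CS6h-C than in Ctl-C (95% interval 0.11 to 1.49, adjusted p = 0.162), where array 5 read 4.41 and the others 2.62 to 2.86.

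FUT2 and FUT1 lie near each other on pig chromosome 6 in the gene table of the Sscrofa11.1 assembly. The same table places a gene named FUT2A beside FUT2, which has no probe under that symbol, and whether the FUT2 probes also match it was not tested. Of the 10 genes between them or within 3 genes on either side, 3 (RASIP1, FGF21 and BCAT2) were on the array by symbol, with 5 probes. Their log2 fold changes after cold storage against Ctl ran from -0.53 to 0.19. No probe of these neighbours was called higher and 1, of FGF21, was called lower in 1 of the 4 comparisons. In these, 2.90% to 4.45% of all probes were called. The other FGF21 probe was well above background on 0 of the 40 arrays.

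FUT8, which fucosylates the core of N-glycans, had a single probe well above background on all arrays. It read 5.20, 4.79, 5.10, 5.35 and 5.36 in Ctl-C, 5.77, 5.31, 5.49, 5.20 and 5.91 in WI+CS6h-C and 5.53, 5.53, 4.91, 5.67 and 5.39 in WI+CS24h-C. Cold-stored values were shifted up within overlapping ranges, by 0.37 (95% interval -0.02 to 0.77, adjusted p = 0.246) and 0.25 (-0.15 to 0.64, adjusted p = 0.537). In the CMJ the shifts were 0.18 at both times (adjusted p = 0.471 and 0.438). FUT8 was not called in any comparison.

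GGTA1, the alpha-Gal enzyme, rose modestly in the CMJ after 6 h of cold storage against Ctl by 2 of its 3 probes. No GGTA1 probe was called at 24 h or against WI. The array holds 3 probes for it, and those at 342 and 477 share the identifier NM_213810, for which the current gene table gives the symbol GGTA1P, and the probe at 3480 has the Ensembl identifier ENSSSCT00000006069. The sequences of the 2 probes that were called are shown.
GGTA1 probe at 342: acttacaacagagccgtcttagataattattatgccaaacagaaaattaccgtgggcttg
GGTA1 probe at 477: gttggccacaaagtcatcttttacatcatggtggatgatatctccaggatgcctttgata
All 3 were well above background on all 40 arrays.

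The GGTA1 probe at 477 read 8.49, 8.46, 8.46, 8.07 and 8.37 in Ctl-CMJ and 8.54, 8.47, 8.32, 8.48 and 8.28 in WI-CMJ. It read 9.02, 9.03, 9.02, 8.71 and 8.78 in WI+CS6h-CMJ and 8.77, 8.79, 8.42, 8.70 and 8.83 in WI+CS24h-CMJ. All arrays at 6 h lay above all Ctl and WI arrays of the CMJ, while at 24 h array 3 fell within their range. The log2 fold change at 6 h against Ctl was 0.54 ± 0.10 (standard error, limma adjusted p = 0.00356, 1.46-fold, called). At 24 h it was 0.33 ± 0.10 (adjusted p = 0.0624). Against WI it was 0.49 at 6 h (adjusted p = 0.00800), just under the size needed for a call, and 0.28 at 24 h (adjusted p = 0.125).

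The GGTA1 probe at 342 read 7.52, 7.46, 7.74, 7.17 and 7.31 in Ctl-CMJ and 7.57, 7.66, 7.59, 7.54 and 7.48 in WI-CMJ. It read 7.97, 7.99, 8.13, 7.83 and 7.81 at 6 h and 7.77, 7.84, 7.79, 7.96 and 8.09 at 24 h. The cold-stored arrays of the CMJ all lay above the others. Against Ctl-CMJ the log2 fold change was 0.50 ± 0.10 at 6 h (adjusted p = 0.00477, 1.42-fold, called) and 0.45 ± 0.10 at 24 h (adjusted p = 0.00921, under the size needed for a call). Against WI-CMJ it was 0.38 (adjusted p = 0.0306) and 0.32 (adjusted p = 0.0638).

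Both calls stood near the size threshold. The probe at 477 lost its call without Ctl-CMJ array 4, the lowest control, at 0.47 (adjusted p = 0.0100). The probe at 342 lost its call without Ctl-CMJ array 4 (0.44) or 5 (0.47), or without WI+CS6h-CMJ array 1 (0.50), 2 (0.49) or 3 (0.46). With these arrays left out the adjusted p stayed between 0.0100 and 0.0158. Conversely, the probe at 342 was called at 24 h against Ctl-CMJ without Ctl-CMJ array 3 (0.52), and the probe at 477 at 6 h against WI-CMJ without WI-CMJ array 1 (0.52), 2 (0.51) or 4 (0.51) or WI+CS6h-CMJ array 4 (0.54) or 5 (0.52). Normalization within groups also made these further 2 calls, at 24 h against Ctl-CMJ and at 6 h against WI-CMJ, at 0.54 (adjusted p = 0.00228) and 0.60 (adjusted p = 0.00117). The calls at 6 h against Ctl-CMJ ended with normexp correction (0.31 at 342 and 0.38 at 477), with the deposited matrix (0.48 for both) and, at 342, with scaling to the 75th percentile (0.49). The probe at 3480 was 0.28 higher at 6 h (adjusted p = 0.0950) and 0.22 at 24 h (adjusted p = 0.207), not called. Of the 8 probes of members other than FUT2, those at 342 and 477 were called in WI+CS6h-CMJ against Ctl-CMJ, where 3.33% of all probes were. These 2 probes share an identifier and stand for 1 gene. In each of the other 7 comparisons of cold storage with Ctl or WI, 0 of the 8 were called, against 1.68% to 4.45% of all probes. With 8 probes, nothing is read from these counts.

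In cortex the 3 GGTA1 probes were 0.08 to 0.33 above Ctl or WI after storage, with no call. Cold-stored cortex overlapped with Ctl-C and WI-C at each probe. Whether the shift differed between tissues was tested as an interaction, which gave 0.17 (95% interval -0.17 to 0.51) at 342 and 0.28 (-0.07 to 0.64) at 477 for 6 h against Ctl, with adjusted p = 0.896 and 0.882. Limma called 0% of all probes in each of the 3 interactions (WI, WI+CS6h and WI+CS24h against Ctl), with 894, 2117 and 1116 of 43575 at an unadjusted p under 0.05. With normalization within groups it called 0, 969 and 189 probes in them. GGTA1 means were lower in the CMJ than in cortex in all 4 treatments, with differences of -0.43 to -0.15, for example -0.43 at 477 in Ctl (adjusted p = 0.143) and -0.39 at 3480 in WI (adjusted p = 0.0540). With normalization within groups, the probes at 342 and 477 were called lower in Ctl-CMJ than in Ctl-C, at -0.53 and -0.57.

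**Figure D3:**
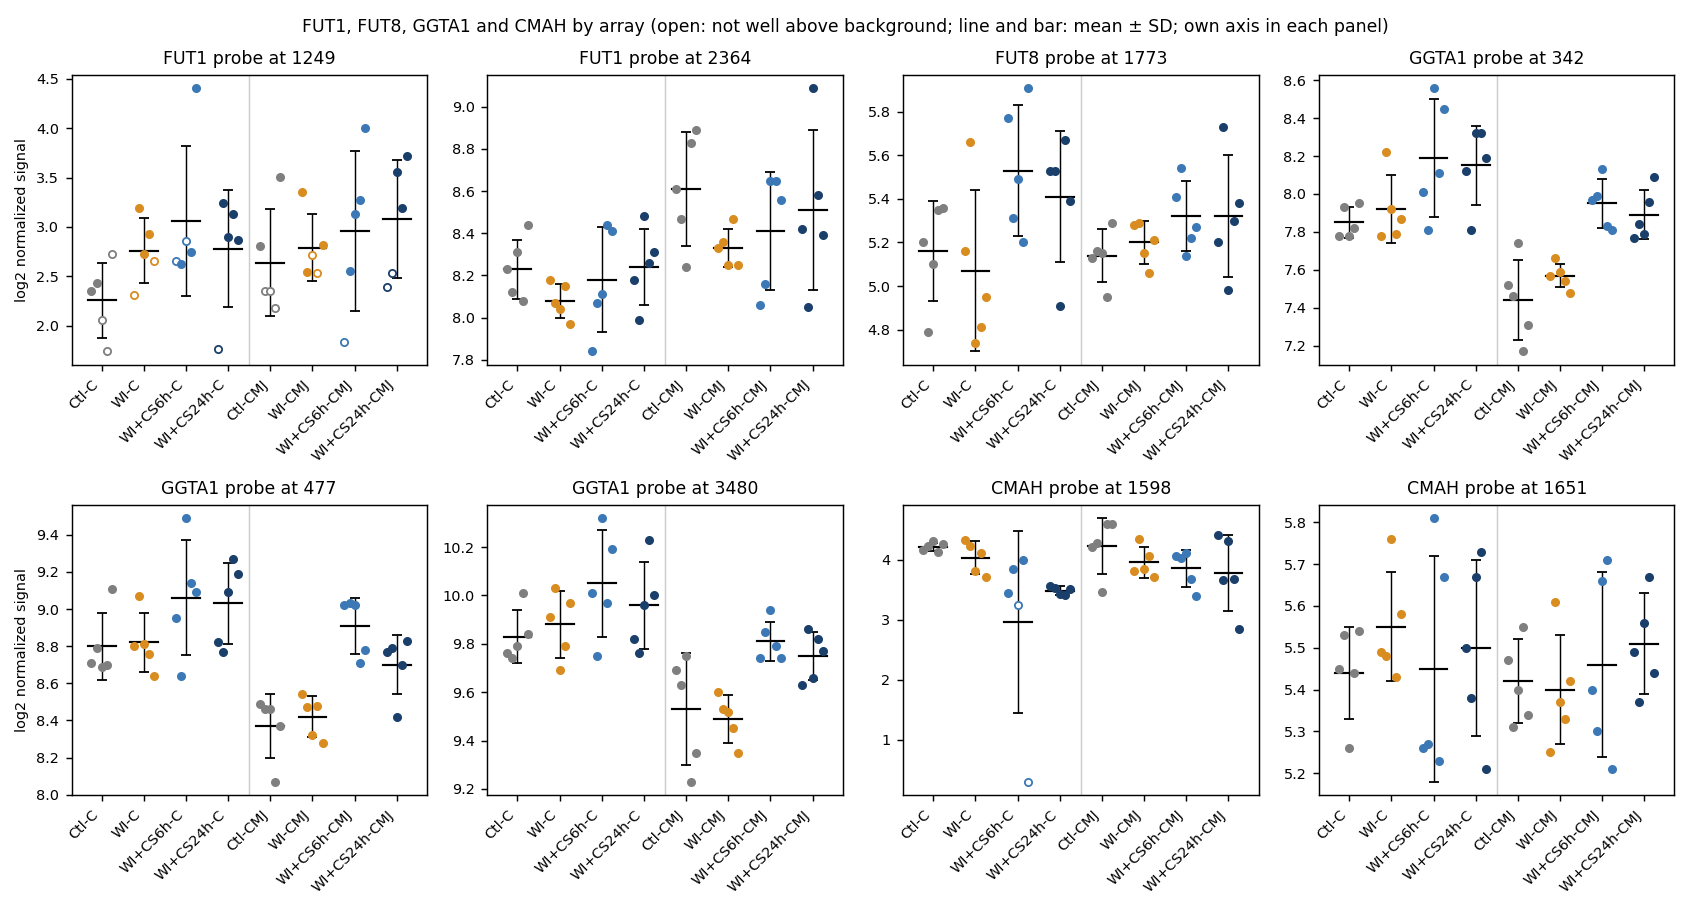
Log2 normalized signal of the 8 probes of FUT1, FUT8, GGTA1 and CMAH on each array by group, with open points for spots not well above background and lines and bars for mean ± SD of 5 arrays. Each panel has its own axis. GGTA1 at 342 and 477 stand higher in the cold-stored CMJ, at means of 7.95 and 8.91 after 6 h, and CMAH at 1598 is lower in cold-stored cortex, with 1 array at 0.30.

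CMAH, the enzyme that turns Neu5Ac into Neu5Gc, was read differently by its 2 probes. Both carry NM_001113015, start 53 bases apart at 1598 and 1651 and share the 7 bases in capitals, which end the first probe and begin the second.
CMAH probe at 1598: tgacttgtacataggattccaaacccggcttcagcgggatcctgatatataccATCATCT
CMAH probe at 1651: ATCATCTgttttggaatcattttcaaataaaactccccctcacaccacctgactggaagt
The probe at 1651 was flat, with group means of 5.40 to 5.55, log2 fold changes of 0.01 to 0.09 after cold storage against Ctl, and no call.

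The CMAH probe at 1598 read 4.16, 4.23, 4.32, 4.13 and 4.26 in Ctl-C and 4.33, 4.24, 3.82, 4.12 and 3.71 in WI-C. After storage it read 3.45, 3.85, 3.25, 4.00 and 0.30 at 6 h and 3.57, 3.54, 3.43, 3.42 and 3.52 at 24 h. All 10 cold-stored cortex arrays lay below all 5 controls, and those at 24 h also below all 5 WI-C arrays. The share of all probes that part these groups in this way was not counted. Limma gave a log2 fold change of -1.25 ± 0.47 at 6 h (adjusted p = 0.123) and -0.73 ± 0.47 at 24 h (adjusted p = 0.453), neither of them a call. Array 5 at 6 h was at 0.30 and not well above background. Without it the value at 6 h was -0.58 ± 0.14 (adjusted p = 0.0314), which is a call. Without array 4 of that group it was -1.51 (adjusted p = 0.0480), also a call, as it was with normalization within groups at -1.43 (adjusted p = 0.0286). In a fit of Ctl-C and WI+CS24h-C alone the value at 24 h was -0.73 ± 0.06 (adjusted p = 0.00112). Arrays 3 and 5 at 6 h, on which this spot was not well above background, had the lowest shares of spots well above background of all 40 arrays, 57.2% and 57.0%, and the part of that in the result was not tested. In the CMJ the fold changes were -0.38 at 6 h and -0.45 at 24 h against Ctl-CMJ, with overlapping arrays (adjusted p = 0.536 and 0.396).

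**Figure D4:**
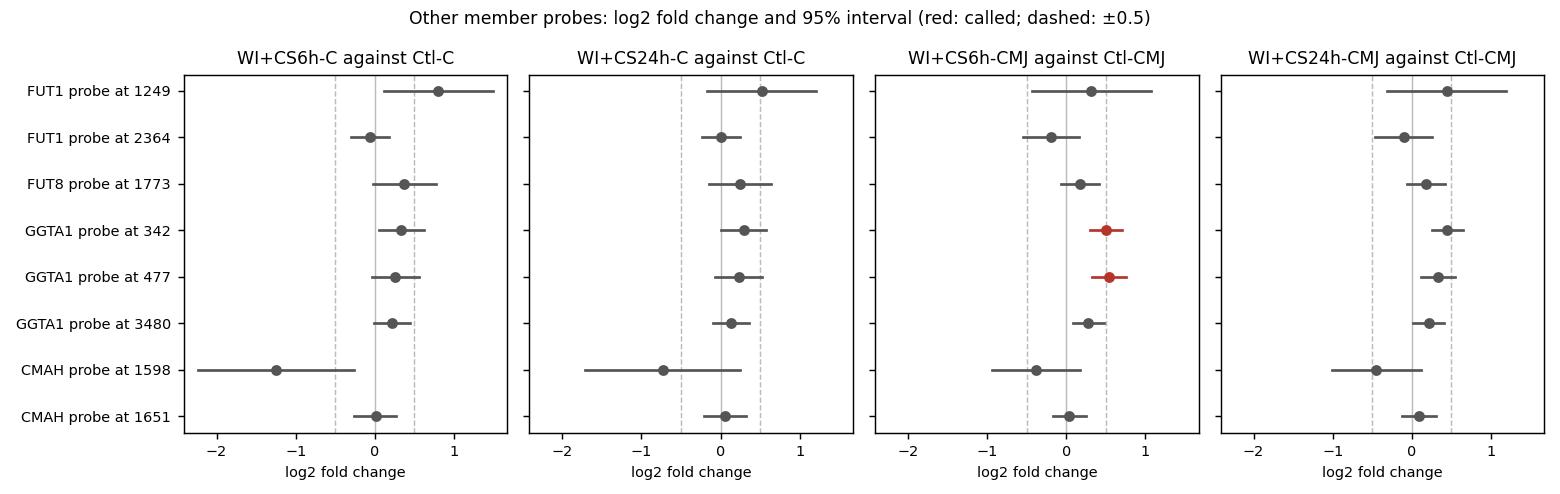
Log2 fold change against Ctl of the same tissue (x axis) with 95% intervals for the 8 probes of FUT1, FUT8, GGTA1 and CMAH in the 4 comparisons of cold storage with Ctl. Red marks the 2 called probes, GGTA1 at 342 (0.50) and 477 (0.54) in WI+CS6h-CMJ, and dashed lines mark the size needed for a call.

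Genes of these sugar pathways other than the members were followed after cold storage against Ctl. By symbol, the array held 5 of 17 genes related to the H, Lewis and ABO antigens. It held 7 of 14 for GDP-fucose supply, other fucosyltransferases and fucosidases, and 5 of 21 for galactose supply and chain extension. For sialic acids it held 16 of 30, and for N-glycan branching 6 of 9. Genes of these 5 lists not matched by symbol may still have probes. The 39 matched genes had 70 probes, and limma called 0 of the 70 in each of the 4 comparisons of cold storage with Ctl. There it called 2.90% to 4.45% of all probes, and with so few list probes nothing is read about the lists from this count. Of the 7 probes of the first list, only 4 were well above background on every array of at least 1 group. The median log2 fold changes of the lists in these comparisons ran from -0.19 to 0.20, against 0 to 0.06 over all probes. The highest medians were those of the GDP-fucose list, 0.20 and 0.17 in cortex and 0.14 and 0.12 in the CMJ.

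MGAT1, which starts the complex branches of N-glycans, was the 1 gene of these lists called against Ctl or WI. The call was 1 of the 70 probes in WI-CMJ against Ctl-CMJ, where 0.787% of all probes were called, and 1 of the 70 in WI+CS6h-CMJ against WI-CMJ, where 3.28% were. Nothing is read about the lists from a single probe. Its probe A_72_P444098 was 4.91 ± 0.27 in WI-CMJ and 4.35 ± 0.16 in Ctl-CMJ, a log2 fold change of 0.57 ± 0.13 (adjusted p = 0.0416). In WI+CS6h-CMJ it was at 4.39 ± 0.20, a log2 fold change of -0.53 from WI-CMJ (adjusted p = 0.0242). The second MGAT1 probe, at 11.31 in WI-CMJ and 11.40 in Ctl-CMJ, went the other way between these groups (-0.08, adjusted p = 0.731) and was not called in either comparison.

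Among all 12738 probes with a symbol, other than FUT2, that were well above background on every array of at least 1 group, those most like FUT2 were ranked by Pearson's r with the mean of the 3 FUT2 probes over the 40 arrays. Of the 5 genes with the highest r, those ranked 2 to 5 are given here and the first is not. They were RPN2 (0.96), a subunit of the oligosaccharyltransferase that starts N-glycosylation, SARAF (0.94), a regulator of calcium entry, DYRK2 (0.94), a kinase, and HSPH1 (0.93), a heat shock protein. RPN2 read 13.10 ± 0.12 (SD) over the 20 cold-stored arrays and 12.57 ± 0.06 over the 20 others. Within the 20 cold-stored arrays alone r was 0.59 for RPN2, 0.79 for SARAF, 0.38 for DYRK2 and 0.71 for HSPH1. The 5 lowest were CYP39A1 (-0.93), PTPN21 (-0.93), CDO1 (-0.93), LOC780409 (-0.92) and GALNS (-0.92), and CDO1, the cysteine dioxygenase, read 5.14 ± 0.75 in cold-stored arrays and 8.17 ± 0.35 in the others. Their r within the cold-stored arrays alone was weaker, at -0.15, -0.30, -0.24, -0.48 and -0.34 in the same order. Probes of SARAF spread from -0.02 to 0.94 and those of PTPN21 from -0.93 to 0.44, while the 8 probes of RPN2 ran from 0.73 to 0.96 and the 4 of GALNS from -0.92 to -0.63. For genes with several ranked probes, the place rests on the choice of 1 probe. DYRK2, CYP39A1, CDO1 and LOC780409 had a single ranked probe each.

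The r of the other members with FUT2 is given as a description only. The genes above were picked as the extremes of r over the 40 arrays, which holds the split that chose FUT2. Over the 40 arrays, the highest r of the other members was 0.65, for GGTA1 at 342, and the lowest was -0.48, for CMAH at 1598. With FUT2 within the 20 cold-stored arrays, r was 0.71, 0.69 and 0.45 for GGTA1 at 3480, 342 and 477. It was 0.40 and 0.55 for FUT1 at 2364 and 1249, 0.61 and -0.44 for CMAH at 1651 and 1598, and -0.03 for FUT8. Within the 20 others the mean of the FUT2 probes is mostly background and no r is given. These are descriptions over arrays that share kidneys and slides.

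Marker genes were read beside these results. In Ctl, the CMJ had higher SLC12A1 (thick ascending limb, log2 fold change 1.24) and UPK3A (urothelium, 2.14) and lower SLC22A6 (proximal tubule, -0.71) than cortex, all called. Of 4 muscle genes with 31 probes, only CKM, a creatine kinase of muscle, was called in cortex at 24 h. In cold-stored cortex 7 probes of CKM were 1.39 to 2.61 higher than in Ctl-C and 1.36 to 2.60 higher than in WI-C. A probe of ACTA1, a muscle actin, was also called higher at 6 h than in Ctl-C (1.58), and it was well above background on 6 of the 40 arrays. In the CMJ 1 CKM probe was called 0.56 higher at 24 h than in Ctl-CMJ. Of the collecting duct genes in cortex, SCNN1G was 0.65 higher at 6 h than in Ctl-C, and 1 AQP3 probe was at -0.67 against WI-C at both times. Of 4 urothelial genes with 7 probes, UPK1B was called higher at 6 h and UPK3A at 24 h in cortex against Ctl, and 2 of the 7 probes were not well above background in any group. Their summed signal was 183 to 373 in Ctl-C, 317 to 437 in WI+CS6h-C and 334 to 612 in WI+CS24h-C, and 580 to 990 in Ctl-CMJ, 451 to 811 in WI+CS6h-CMJ and 455 to 1110 in WI+CS24h-CMJ. Over 14 probes of 5 proximal tubule genes the median log2 fold change against Ctl-CMJ was 0.86 at 6 h and 0.71 at 24 h. GGTA1 at 342 and 477 was lower, at 0.50 and 0.54 at 6 h and at 0.45 and 0.33 at 24 h. Against Ctl-C the proximal tubule median was 0.55 and 0.46, with 1 of the 14 probes called in these 4 comparisons. Against WI the medians were 0.56 and 0.43 in the CMJ and 0.36 and 0.24 in cortex. The summed signal of these genes was 61000 to 68800 (median 64300) in Ctl-CMJ, 54100 to 141000 (median 90800) in WI+CS6h-CMJ and 56200 to 129000 (median 88700) in WI+CS24h-CMJ. In cortex it was 77200 to 90900 in Ctl-C, 65000 to 155000 in WI+CS6h-C and 60100 to 135000 in WI+CS24h-C, so that the cold-stored arrays spread to both sides of the controls. In the cold-stored CMJ, where GGTA1 was called at 6 h, 2 of 10 endothelial probes, both of KDR, were higher than in Ctl-CMJ, by 0.53 and 0.59 at 6 h and by 0.63 and 0.65 at 24 h. The summed signal of the 4 endothelial genes was 4560 to 7250 in Ctl-CMJ, 5590 to 7200 in WI+CS6h-CMJ and 4780 to 8600 in WI+CS24h-CMJ. SCNN1G, an epithelial sodium channel subunit of the collecting duct, was 0.66 and 0.85 higher than in Ctl-CMJ at 6 h and 24 h, while the median over the 6 collecting duct probes was -0.45 and -0.35. Against WI-CMJ, SCNN1G was 0.79 and 0.97 higher, and 3 of the 6 probes were called lower at both times, AQP2 (-1 and -0.88) and both AQP3 probes (-0.91 to -0.84), water channels of the collecting duct, with list medians of -0.70 and -0.60. CDH5 of the endothelium was also called lower against WI-CMJ (-0.73 and -0.61), as were 2 probes of ADIPOQ, an adipocyte gene, which were well above background on 3 of the 40 arrays. The called proximal tubule probe was of SLC22A8, 0.79 higher than in Ctl-CMJ at 6 h. The part of the muscle, urothelial, endothelial, adipocyte, collecting duct and proximal tubule genes in the FUT2 and GGTA1 results was not tested.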

How the data were processed

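The authors deposited 1 Agilent Feature Extraction output (version 11.5.1.1) per array, of Cy3-labelled total RNA on 44k porcine arrays, whose processed intensity was background-subtracted and detrended and not normalized between arrays. They also deposited a log2 matrix, which matched to within 0.001 in 99.98% of 35955 identifiers the log2 median spot intensity, left without background subtraction, after quantile normalization of the 40 arrays together and with the median taken over spots.

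Here the processed intensity of 43803 non-control spots was taken to log2, 10 to 85 outlier spots per array were left out, the 40 arrays were quantile normalized together and spots were averaged per probe. Limma 3.58.1 in R 4.3.3 (lmFit, eBayes) was fitted to the 20 arrays of a tissue, and to all 40 for tissue comparisons and interactions, with Benjamini-Hochberg adjustment over all probes and calls at adjusted p values under 0.05 with a log2 change of 0.5 or more either way. Intervals are 95% intervals of these fits. The fits were tested on simulated data. The number of arrays limits the precision.

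Pairing rests on the labels, which say that the same kidneys were sampled at 6 h and 24 h. Deviations from the group means of the same number correlated by 0.369 to 0.658 in the CMJ and by -0.262 to 0.393 in cortex between these times. Alternatives were 75th percentile scaling, normalization within groups, a filter on dim probes, normexp correction with an offset of 50, averaging by identifier, the deposited matrix, a replicate block, slide as a random block (statmod 1.5.0), a fit of the 2 groups alone and leaving out each array. Figures were drawn in Python 3.11.15 with matplotlib 3.10.9. Members and lists were chosen with earlier results of these data known. All member probes are named, from the 5 pathway lists every gene called against Ctl or WI, and the 5 genes most and least like FUT2, of which 1 is not reported here. RASIP1, FGF21, BCAT2, FUT2A and the marker genes were named after their values were seen.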

Additional observations from a re-analysis of the deposited data

Results flagged for a closer look

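In 12 of the 88 sets of 5 arrays (11 probes in 8 groups), 1 array stood apart from the other 4 by more than Dixon's 95% critical value, where chance gives about 4.4. In 9 of the 12 the spot on that array was not well above background. Values are log2 normalized signals.

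At the FUT2 probe at 1957, high values among dim spots were 1.32 in WI-C array 4, 1.60 in Ctl-CMJ array 5 and 0.82 in WI-CMJ array 2, where the other arrays of the groups read 0.20 to 0.41. At the FUT2 probe at 1248 they were 1.38 in Ctl-C array 5, 0.19 in WI-C array 3, 0.51 in Ctl-CMJ array 5 and 0.76 in WI-CMJ array 2, against 0.04 to 0.06 elsewhere in these groups. Ctl-CMJ array 5 and WI-CMJ array 2 were thus high for both probes. All 7 remained below the lowest cold-stored array.

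At the FUT2 probe at 454, Ctl-CMJ array 4 read 4.76, against 3.27 to 3.66 in the other controls of that tissue, and it narrowed the gap to the cold-stored arrays. The probes at 1248 and 1957 read 0.05 and 0.25 on that array.

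FUT1 at 1249 read 4.41 in WI+CS6h-C array 5, against 2.62 to 2.86, and 1.76 in WI+CS24h-C array 1, against 2.87 to 3.24. CMAH at 1598 read 0.30 in WI+CS6h-C array 5, against 3.25 to 4.00. GGTA1 at 477 read 9.11 in Ctl-C array 5, against 8.69 to 8.79.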

How the results depend on the processing

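FUT2 was chosen by the contrast of cold-stored with other arrays, so its values under alternatives are a description. Its mean difference, against background at 1248 and 1957, moved with normexp to 0.52 at 1957, 0.80 at 1248 and 0.33 at 454, with averaging by identifier to 4.41 and with the deposited matrix to 1.63, values shared by the 3 probes (1.63 was within the spread at 454). Without 1 array it was 5.20 to 5.31 at 1957, 6.05 to 6.16 at 1248 and 1.84 to 1.94 at 454. Counts of called member probes leave FUT2 out where cold storage was compared with Ctl or WI. For WI+CS6h-CMJ against Ctl-CMJ the count was 2, both of GGTA1, and it was 0 with normexp (0.31 at 342 and 0.38 at 477), 0 with the deposited matrix (0.48) and 1 with scaling to the 75th percentile, since GGTA1 fell under the size needed. Normalization within groups gave 2 in place of 0 in Ctl-CMJ against Ctl-C, both of GGTA1, and 1 in place of 0 in 3 comparisons: GGTA1 at 342 in WI+CS24h-CMJ against Ctl-CMJ (0.54), GGTA1 at 477 in WI+CS6h-CMJ against WI-CMJ (0.60) and CMAH at 1598 in WI+CS6h-C against Ctl-C (-1.43). A fit of 2 groups alone gave 1 in place of 0 in WI+CS24h-C against Ctl-C, CMAH at 1598 (-0.73). Without 1 array the count was 0 to 2 in WI+CS6h-CMJ against Ctl-CMJ, 0 to 1 in WI+CS6h-C against Ctl-C, WI+CS24h-CMJ against Ctl-CMJ and WI+CS6h-CMJ against WI-CMJ, and 0 to 0 in all remaining comparisons. Over 9 alternatives GGTA1 at 477 was called in 7 (0.38 to 0.66, adjusted p 0.000589 to 0.0244) and at 342 in 6 (0.31 to 0.61, adjusted p 0.000857 to 0.0425).

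The count over all probes depended on the processing, for example in WI+CS6h-CMJ against Ctl-CMJ, with 1452 calls, 285 with normexp and 500 with the deposited matrix. Between 24 h and 6 h, normalization within groups called 1169 probes in cortex in place of 0 and 324 in the CMJ in place of 1, where the median log2 change of all probes moved from -0.01 to -0.10 in cortex. Its largest median was 0.22, in the interaction of WI+CS24h, where it was -0.01 otherwise. Between the tissues it called 1264 probes in WI+CS6h in place of 28 and 723 in WI+CS24h in place of 0. The share of calls that were higher moved from 44.6% to 28.6% in WI+CS6h-C and from 44.1% to 67.2% in WI+CS6h-CMJ against Ctl. The cause was not tested.

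With the replicate block, FUT2 at 1248 changed from 6 h to 24 h by -0.12 (standard error 0.28) in cortex and 0.18 (standard error 0.23) in the CMJ, and the block changed no call of a member probe in 209 values. Probes near background limit what can be said of FUT2 without cold storage and of FUT1 at 1249.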
